A study of Tetranychus urticae with 24 samples.

Results

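The 61 genes described here are those of the spider mite *Tetranychus urticae* whose mean level was lower after piperonyl butoxide (PBO) and higher after diethyl maleate (DEM) than after formulation alone (FORM). They were chosen by measured values, the mean levels with PBO, DEM and FORM, from 19087 genes in the table of counts. Levels are in CPM, the count of a gene as a share of the total of its library on the usual CPM scale, and L is the log2 ratio of group mean CPM over the FORM mean CPM after 0.5 was added to both. A gene was kept when its FORM mean was at least 2 CPM, its L of PBO was at most −0.5 and its L of DEM was at least 0.5. These limits were met by 70 genes, of which 9 belonged to a set of 12 genes, most of them of nuclear regulators, that was left out by name. By the gene descriptions published with the study's lists of differentially expressed genes, 31 of the 61 had a name, 7 were called hypothetical proteins and 23 were in none of the lists.

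RNA was measured in 24 libraries, 4 for each of 6 groups, made from adult females of the JP-R strain aged 3 to 5 days. The groups were females sprayed with PBO at 1000 ppm, with S,S,S-tributyl phosphorotrithioate (DEF) at 500 ppm, with DEM at 2000 ppm or with cyclosporin A (CsA) at 50 ppm, females sprayed with FORM only (N,N-dimethylformamide and emulsifier W in water) and unsprayed females (CON). All of them came from 1 acaricide-resistant strain, kept on bean under the acaricide cyenopyrafen until the week before sampling, so that each group shared this history. Females alive after 24 hours were collected, and about 100 were pooled whole in each extract. The level of a gene is therefore an average over all tissues, in which fewer cells of a type and less RNA per cell cannot be told apart.

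Synergists are compounds that weaken the enzymes or pumps with which an arthropod disposes of a toxicant. PBO inhibits cytochrome P450 monooxygenases, DEF inhibits esterases, DEM depletes glutathione, the substrate of glutathione S-transferases, and CsA blocks transporters of the ABC family. Many of the named genes work in the nucleus: TFIID and Mediator are complexes that recruit RNA polymerase II to promoters, PHD fingers are modules that bind histone tails, and arginine/serine-rich proteins act in splicing. Others build or bind the extracellular matrix, the network of secreted proteins between and around cells.

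Total counts per library lay between 13824851 and 18198286, and the most abundant gene took between 3.58% and 7.69% of them. No library held the same values as another, and pairs of replicates differed by more than counting noise (chi-square per degree of freedom of 3.47 to 54.1). CsA replicate 4 stood apart from the other CsA libraries. The paper had named this replicate as the exception to grouping by treatment on the first axis of its principal component analysis. On the second axis it found the CsA replicates, this one included, to group relatively well. In that analysis of many genes, PBO lay closest to DEF, and CsA grouped with DEM. CsA replicate 4 had the lowest CPM of the 4 CsA libraries in 59 of the 61 genes (96.7%), against 31.8% of the 10482 genes with a FORM mean of at least 2 CPM. Counts and medians that involve CsA, and the genes described library by library, are therefore given with and without this library. In CsA replicate 4 the marker genes of whole females, summed, were at 1738 CPM for vitellogenin and germline, at 179.7 CPM for cuticle, at 29.4 CPM for silk and at 144 CPM for neuropeptides. CsA replicates 1 to 3 had 2145, 1936 and 2112 CPM for vitellogenin and germline, 107, 100.5 and 115 CPM for cuticle, 43.9, 39.7 and 32.8 CPM for silk, and 166, 151 and 178 CPM for neuropeptides. The library thus held the highest cuticle sum and the lowest of the other sums in its group. A sum can rest on 1 abundant gene and can hide genes that moved in opposite directions. The part of these tissues in the results was not tested. No gene of the first 3 lists was at 0 in a library, whereas 3 of the 7 neuropeptide genes were at 0 in at least 1 library.

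The values that chose the genes are given as a description. L of PBO ran from −1.18 to −0.50 with a median of −0.65, and L of DEM from 0.50 to 1.71 with a median of 0.63. The middle of the 10482 genes lay at 0.02 for PBO and −0.02 for DEM. Of these genes, 231 had an L of PBO of at most −0.5 and 227 an L of DEM of at least 0.5, and 34 met the limits the opposite way, higher with PBO and lower with DEM. Of the 61 genes, 34 were past an adjusted p of 0.05 and a fold change (FC) of 1.5 as lower in PBO against FORM, a contrast in which 1.59% of all genes tested were, and 41 as higher in DEM against FORM, where 1.69% of all genes tested were. In the other directions, where the limits on L leave 0 of the 61, 1.06% of all genes tested were higher with PBO and 0.526% lower with DEM. Both contrasts were used to choose the genes. These counts, and the separation of libraries that follows, were therefore largely fixed by the choice and are not a result. In 51 genes all PBO libraries lay below all FORM libraries, as in 8.98% of the 10482 genes, and in 57 genes all DEM libraries lay above them, as in 11.7% of the 10482. The PBO libraries also had higher sums than the FORM libraries, with no overlap, for cuticle (190.6 to 357 CPM, against 99.2 to 145 CPM) and silk (45.9 to 63.0 CPM, against 35.3 to 43.4 CPM), and a lower neuropeptide sum (133 to 158 CPM, against 165 to 183 CPM). The part of these tissues was not tested.

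Several genes lay close to the limits. The intradiol ring-cleavage dioxygenase tetur12g04671 (L of PBO −0.5001), tetur03g03200 (−0.5027) and tetur08g05760 (−0.5054) were just inside, while tetur30g01510 (−0.4959), tetur08g07130 (−0.4893) and tetur02g00620 (−0.4773) were just outside. On the side of DEM, tetur12g01710 (L of DEM 0.5014), tetur38g00700 (0.5027) and tetur09g03700 (0.5098) were kept, and tetur24g01640 (0.4998), tetur12g01340 (0.4927) and tetur28g02610 (0.4909) were not. By level, tetur12g01710 (FORM mean 2.12 CPM), tetur03g10177 (2.19 CPM) and tetur09g00460 (2.61 CPM) were kept, and tetur07g05200 (1.84 CPM), tetur25g00470 (1.76 CPM) and tetur29g00480 (1.75 CPM) were not.

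The genes were mostly of low to moderate level. Their median group mean was 10.1 CPM with PBO, 12.6 CPM with DEF, 29.1 CPM with DEM and 21.2 CPM with CsA, against 17.4 CPM with FORM and 19.8 CPM in CON mites. The median over all 10482 genes with FORM was 36.8 CPM. Together the 61 genes took 0.184% to 0.218% of the counts in PBO libraries and 0.490% to 0.549% in DEM libraries, against 0.280% to 0.332% in FORM libraries. In the libraries that the choice did not use, they took 0.251% to 0.365% with DEF and 0.624%, 0.514%, 0.510% and 0.215% in CsA replicates 1 to 4, against 0.324% to 0.371% in CON mites.

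The mean of log2(CPM + 0.5) over the 61 genes places the libraries on 1 scale. It was 3.32, 3.30, 3.50 and 3.46 in PBO libraries and 4.78, 4.86, 4.82 and 4.70 in DEM libraries, against 4.00, 4.11, 4.06 and 4.16 in FORM libraries. With DEF it was 3.69, 3.65, 4.01 and 4.12 and with CsA 5.04, 4.74, 4.75 and 3.65, against 4.20, 4.25, 4.31 and 4.21 in CON mites. All DEF libraries lay below all CON libraries, DEF replicates 1 and 2 farther than the other two. CsA replicates 1 to 3 lay above all CON libraries, and CsA replicate 4 below all of them, at the level of the lowest DEF library. This is shown in the plot of the mean level by library.

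**Figure D1:**
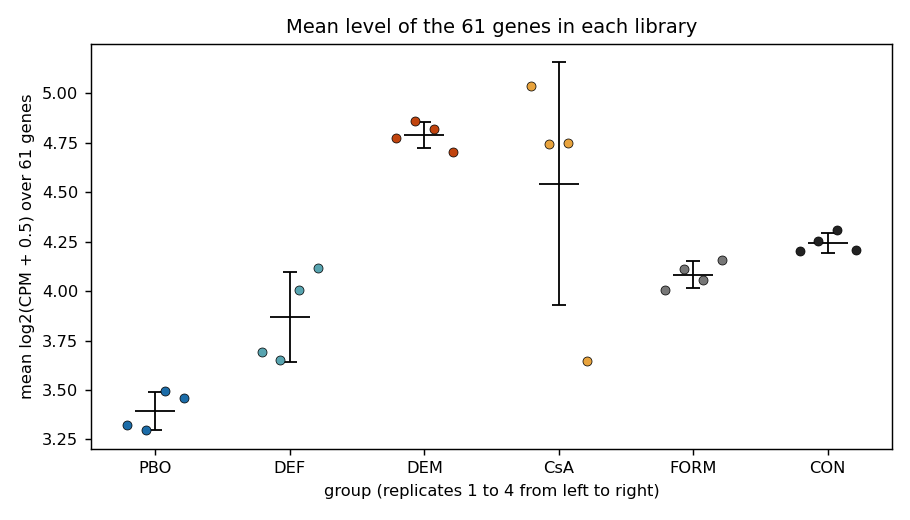
Mean of log2(CPM + 0.5) over the 61 genes (vertical axis) in each of the 24 libraries (points), by group, and horizontal lines and bars are the mean and SD of 4 libraries. CsA replicate 4 lies at 3.65 while the other CsA libraries lie between 4.74 and 5.04, and the PBO and DEM groups are separated from FORM by the choice of genes.

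The same split within the CsA group was seen gene by gene. In 47 of the 61 genes (77.0%) CsA replicates 1 to 3 all lay above all CON libraries, against 8.20% of the 10482 genes. CsA replicate 4 lay below all CON libraries in 55 genes (90.2%), against 44.0% of the 10482 genes. It lay above all of them in 0 genes, against 10.8% of the 10482. In 44 genes (72.1%) CsA replicates 1 to 3 lay above and CsA replicate 4 below all CON libraries, against 3.39%. The median log2 ratio of the 61 genes over the CON mean was 0.70, 0.50 and 0.44 in CsA replicates 1 to 3 and −0.54 in CsA replicate 4, while that of all genes was between −0.14 and −0.07 in these libraries. The 2 genes in which CsA replicate 4 was not the lowest of its group were the sodium channel tetur09g00460 and the dioxygenase tetur12g04671.

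The genes also varied more between replicates than other genes in some groups, in a comparison not matched for level. They were of lower level (median FORM mean 17.4 CPM, against 36.8 CPM), where counting noise weighs more. Their median coefficient of variation over the 4 replicates was 36.8% with CsA, against 9.22% for the 10482 genes. It was 18.9% against 7.43% with DEF and 15.6% against 8.72% with PBO. With DEM it was 9.20% against 10.1%, with FORM 9.64% against 7.25% and in CON mites 10.3% against 10.3%. With DEF, replicates 1 and 2 were the lower ones: their median log2 ratios over the CON mean were −0.50 and −0.56, and those of DEF replicates 3 and 4 were −0.24 and −0.11.

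**Figure D2:**
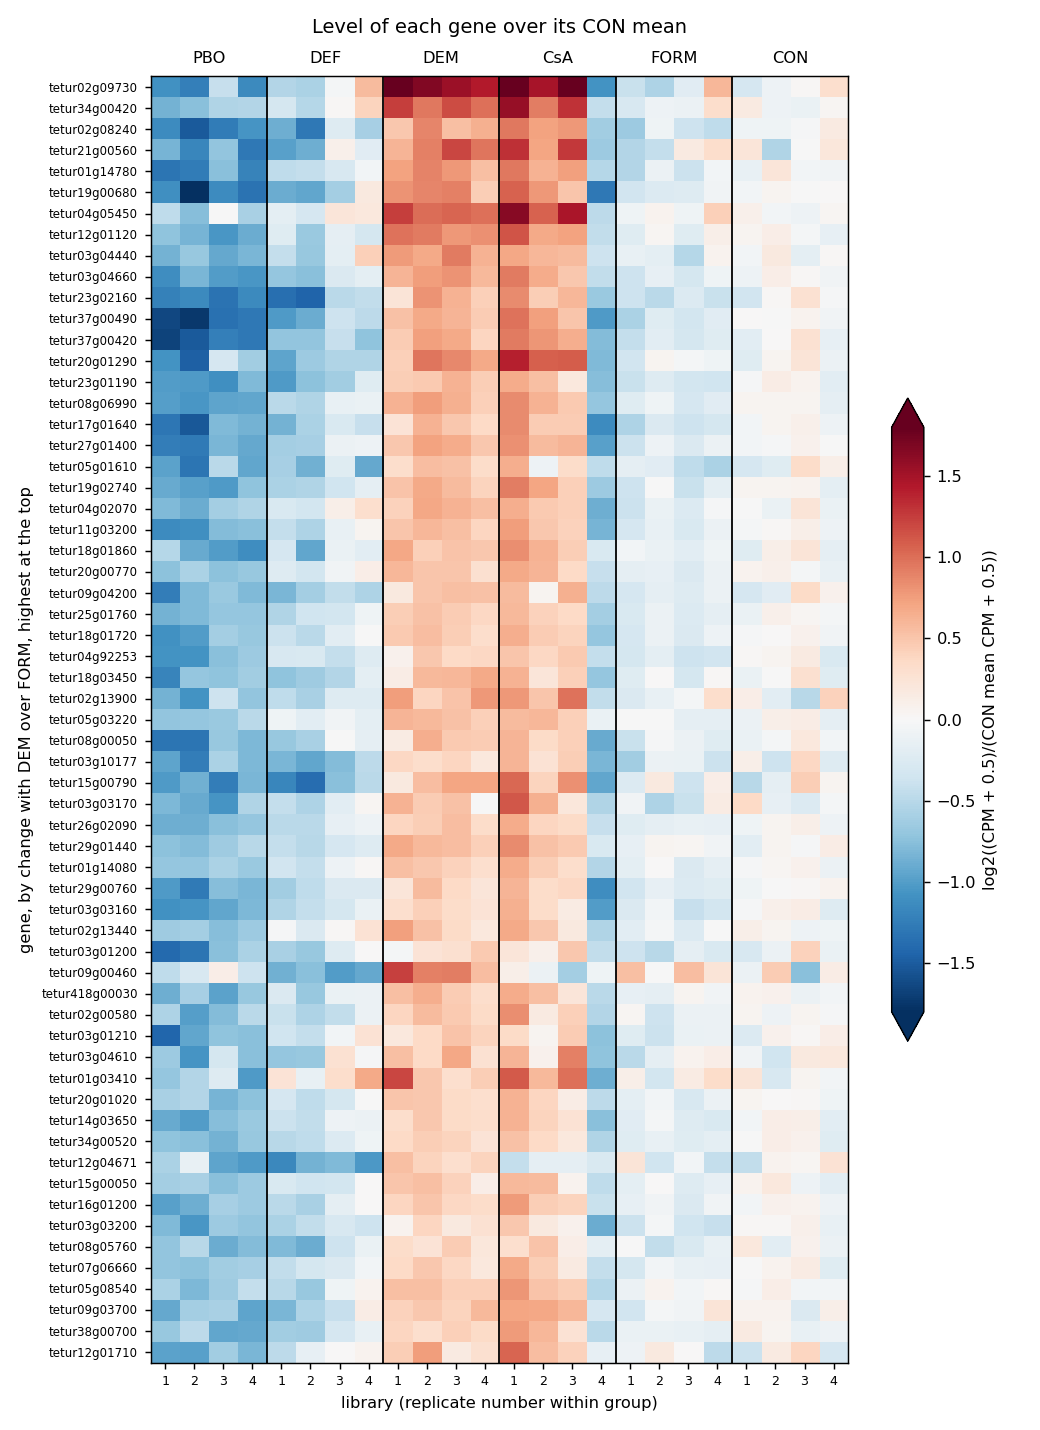
log2 ratio of each gene's level to its CON mean (colour, red higher and blue lower, 0.5 CPM added) for the 61 genes (rows, by L of DEM) in the 24 libraries (columns, by group and replicate). The CsA columns of replicates 1 to 3 are red in nearly all rows and the column of CsA replicate 4 is blue, with medians of 0.70, 0.50, 0.44 and −0.54.

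CsA against DEF compares 2 treatments whose libraries the choice of genes did not use. All 61 genes were higher with CsA than with DEF, against 49.4% of all 12736 genes tested. The median log2 FC of the 61 was 0.82, while that of all genes tested was −0.00365. The genes rose in 47 cases and fell in 0 (adjusted p below 0.05 and FC of at least 1.5, the quasi-likelihood test of edgeR with Benjamini-Hochberg adjustment), whereas 4.00% of all genes tested rose and 2.28% fell. At an unadjusted p under 0.05, 57 were higher and 0 lower, against 18.2% and 15.7% of all genes tested, and by the adjusted p alone 56 were higher and 0 lower. Without CsA replicate 4, 59 rose, against 6.69% of all genes tested, and the log2 FC ran from 0.50 to 2.26 with a median of 1.03. Without CsA replicate 1, 29 rose, and with only the 2 groups compared in the fit 37 did. In 55 genes CsA replicates 1 to 3 all lay above all DEF libraries and above CsA replicate 4, as they did in 9.39% of the 10482 genes. The silk sum also separated these groups, with 29.4 to 43.9 CPM with CsA, against 57.1 to 90.9 CPM with DEF, while the other 3 sums overlapped. The silk list was formed by words in gene names, and its 3 genes did not move together. Of them tetur13g00990, in the paper's text an orphan secreted protein, fell (log2 FC −1.39), tetur04g08890 rose (1.31) and tetur01g16874 had 0.39. Of 6 vitellogenin and germline genes 4 rose and 1 fell, and of 7 neuropeptide genes 3 rose and 1 fell. These list counts were the same without CsA replicate 4. The part of these tissues in the difference was not tested.

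The largest differences between CsA and DEF were in the adenylosuccinate lyase gene tetur02g09730 (log2 FC 1.89, SE 0.44, adjusted p = 0.00389, the quasi-likelihood test of edgeR with Benjamini-Hochberg adjustment), the collagen gene tetur15g00790 (log2 FC 1.73), the hypothetical protein gene tetur20g01290 (1.62), the P450 pseudogene tetur21g00560 (1.51) and the Tenectin gene tetur02g08240 (1.46). Without CsA replicate 4 these were 2.26, 2.03, 1.92, 1.81 and 1.72. The smallest were in tetur03g01210 (log2 FC 0.30), tetur02g13440 (0.32), the RNF25 ubiquitin ligase gene tetur04g02070 (0.36), tetur01g03410 (0.42) and tetur03g03200 (0.53), none of which passed both limits.

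Against unsprayed mites, which the choice did not use either, 7 of the 61 genes fell with DEF and 0 rose, where 1.89% of all genes tested fell and 2.47% rose (the quasi-likelihood test of edgeR with Benjamini-Hochberg adjustment). The median log2 FC was −0.31, against −0.00912 for all genes tested, and 57 of the 61 values were negative, against 51.7% of all genes tested. At an unadjusted p under 0.05, 20 were lower and 0 higher, against 14.4% and 14.8% of all genes tested. The genes that fell were tetur09g00460, tetur12g04671, tetur15g00790, tetur23g02160, tetur23g01190, tetur03g10177 and tetur09g04200. Of these, only the dioxygenase tetur12g04671 passed both limits whichever of the 8 DEF and CON libraries was left out. Only 2 genes fell without DEF replicate 1, without DEF replicate 2 or without CON replicate 3. The neuropeptide sum was 136 to 153 CPM with DEF, against 168 to 202 CPM in CON mites, with no overlap, while the vitellogenin and germline sum (1929 to 2329 CPM, against 1439.8 to 1975 CPM), the cuticle sum (116 to 179 CPM, against 107 to 140.0 CPM) and the silk sum (57.1 to 90.9 CPM, against 63.9 to 97.4 CPM) overlapped. Genes within a list moved both ways: 4 of 6 vitellogenin and germline genes fell and 2 rose, with a median log2 FC of −0.67. Of 7 neuropeptide genes 5 fell and 2 rose. None of the 3 silk genes or the 7 summed cuticle genes passed both limits. The part of these tissues in the difference was not tested.

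With CsA against CON, 9 of the 61 genes rose and 0 fell, where 1.68% of all genes tested rose and 0.981% fell (the quasi-likelihood test of edgeR with Benjamini-Hochberg adjustment), and the median log2 FC was 0.46, or 0.64 without CsA replicate 4. At an unadjusted p under 0.05, 43 were higher and 0 lower, against 15.1% and 14.6% of all genes tested. The number rested on single libraries: it was 38 without CsA replicate 4, where 3.17% of all genes tested rose, and 1 without CsA replicate 1. Without CsA replicate 2 or replicate 3 it was 3, and without CON replicate 2 or replicate 3 it was 4 and 2. With only the 2 groups compared in the fit it was 0. The genes that rose with all libraries were tetur02g09730, tetur04g05450, tetur34g00420, tetur20g01290, tetur12g01120, tetur12g01710, tetur01g14780, tetur37g00420 and tetur03g04660. Of these 9, only tetur04g05450 passed both limits whichever of the 8 CsA and CON libraries was left out. It did not pass with only the 2 groups compared (adjusted p = 0.0651, quasi-likelihood test of edgeR). The silk sum was 29.4 to 43.9 CPM with CsA, against 63.9 to 97.4 CPM in CON mites, with no overlap, while the other 3 sums overlapped. Of the 3 genes of the silk list tetur13g00990 fell (log2 FC −1.24), while tetur04g08890 (0.59) and tetur01g16874 (0.52) did not pass both limits. Without CsA replicate 4, 1 silk gene fell and 2 rose. Of the 7 neuropeptide genes 2 fell and 0 rose, with or without this library. The part of these tissues in the difference was not tested.

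The contrasts with FORM share the FORM libraries with the choice of genes. With CsA against FORM, 14 rose and 0 fell, where 0.612% of all genes tested rose and 0.487% fell (the quasi-likelihood test of edgeR with Benjamini-Hochberg adjustment), with a median log2 FC of 0.55, or 0.76 without CsA replicate 4. At an unadjusted p under 0.05, 55 were higher and 1 lower, against 12.6% and 12.3% of all genes tested. The count was 54 without CsA replicate 4, where 3.26% of all genes tested rose, and 0 without CsA replicate 1, 2 or 3 or FORM replicate 3. It was 1 without FORM replicate 1 and 2 without FORM replicate 2, so that none of the 14 passed whichever library was left out. With only the 2 groups compared in the fit the count was 0. With DEF against FORM, 2 genes fell and 0 rose, where 1.20% of all genes tested fell and 1.5% rose, and 10 were lower at an unadjusted p under 0.05 and 0 higher, against 12% and 11.7% of all genes tested. The silk sum (57.1 to 90.9 CPM with DEF, against 35.3 to 43.4 CPM with FORM) and the neuropeptide sum (136 to 153 CPM, against 165 to 183 CPM) did not overlap, and their part was not tested. The 2 genes were tetur09g00460 (log2 FC −1.68) and tetur12g04671 (−0.88), and both passed whichever library was left out.

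With FORM against CON no gene of the 61 was past the limits in either direction, where 0.0157% of all genes tested fell and 0.00785% rose (the quasi-likelihood test of edgeR with Benjamini-Hochberg adjustment), and 0 were past an unadjusted p of 0.05 or past the limits by DESeq2 or limma-voom. The median log2 FC was −0.12, against −0.00441 for all genes tested. Of the 61 values 52 were negative, against 51.9% of all genes tested. The FORM mean CPM was below the CON mean in 58 genes, against 76.3% of the 10482 genes. The silk sum was 35.3 to 43.4 CPM with FORM, against 63.9 to 97.4 CPM in CON mites. Of its 3 genes tetur13g00990 fell (log2 FC −0.90), while tetur04g08890 (−0.54) and tetur01g16874 (−0.16) did not pass both limits. The paper describes tetur13g00990 as coding for an orphan secreted protein, and it was the only gene the paper found different between these groups. The part of silk genes was not tested.

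**Figure D3:**
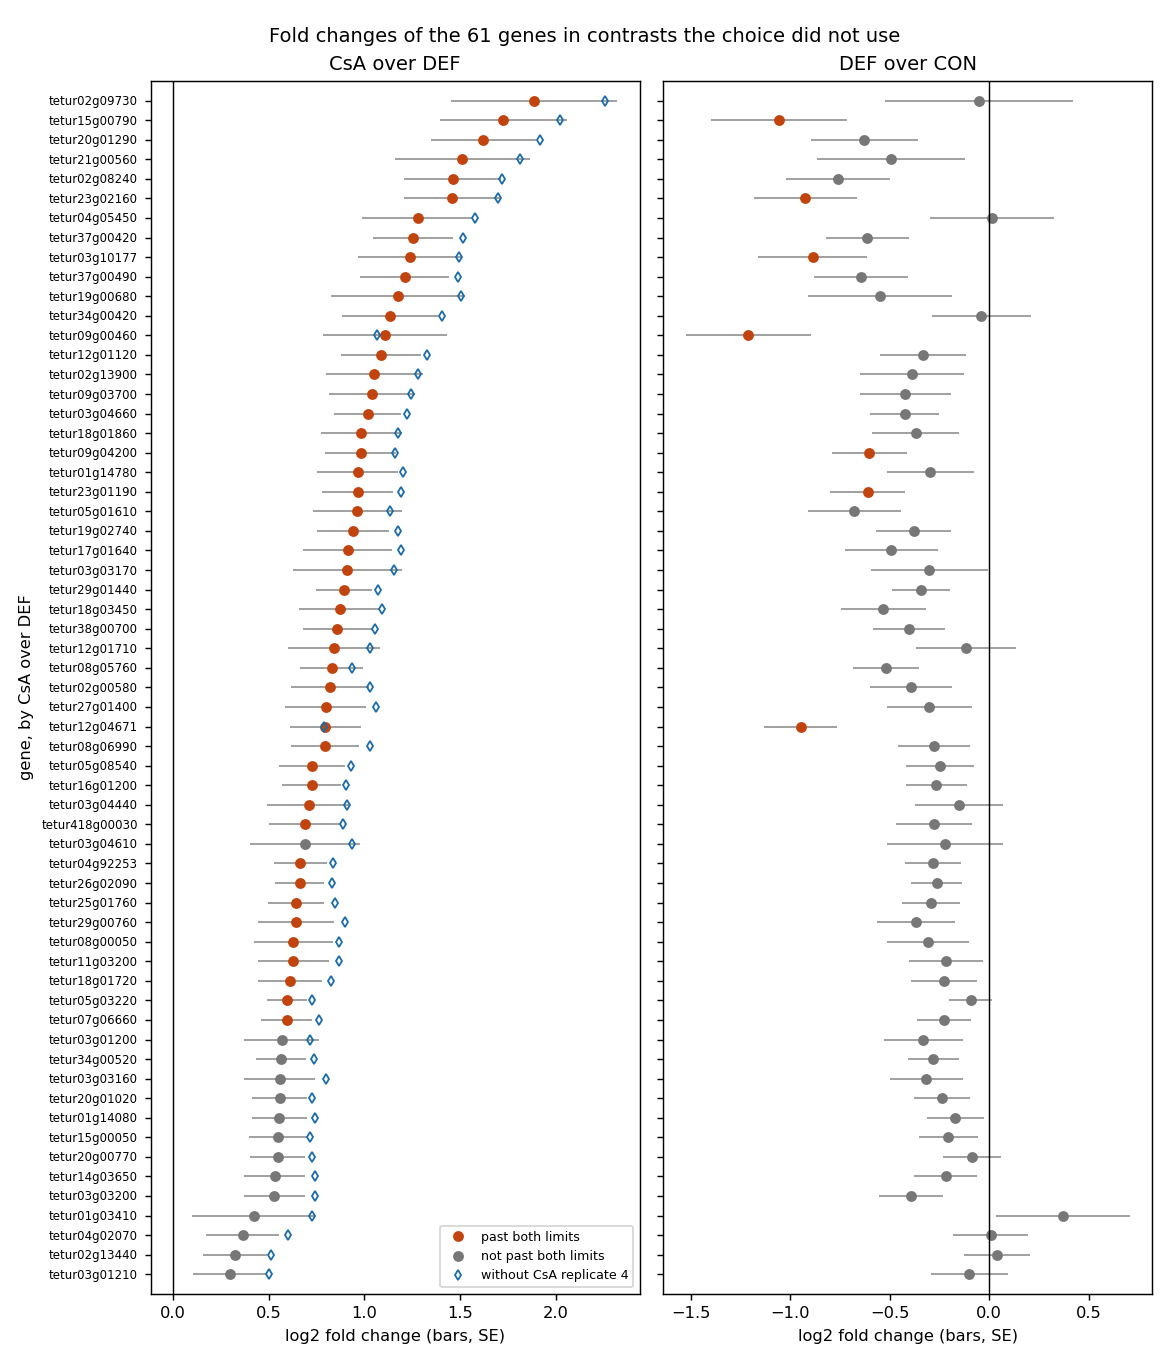
log2 fold changes (points, with SE) of the 61 genes for CsA over DEF (left) and DEF over CON (right), from edgeR's quasi-likelihood fit of all libraries, with red points past an adjusted p of 0.05 and an FC of 1.5. Open diamonds give CsA over DEF without CsA replicate 4, and all 61 points of the left panel lie above 0, between 0.30 and 1.89.

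Among the named genes, 7 belong to chromatin and transcription. All 7 rose with CsA against DEF and none passed both limits with DEF against CON (the quasi-likelihood test of edgeR with Benjamini-Hochberg adjustment). Of all genes tested, 4.00% rose with CsA against DEF, and 1.89% fell and 2.47% rose with DEF against CON. The gene of TFIID subunit 3 (tetur08g00050), a part of the complex that recognises core promoters, had 13.4, 13.4, 21.01 and 19.2 CPM with PBO and 37.9, 53.9, 47.4 and 47.0 CPM with DEM, against 25.7, 33.7, 31.8 and 29.2 CPM with FORM. It had 21.1, 22.5, 33.7 and 30.4 CPM with DEF and 52.2, 43.2, 45.9 and 18.0 CPM with CsA, against 31.2, 33.2, 38.9 and 32.96 CPM in CON mites. DEF replicates 1, 2 and 4 lay below all CON libraries and DEF replicate 3 within their range, and CsA replicate 4 was the lowest of these 12 libraries. With CsA against DEF its log2 FC was 0.63 (SE 0.20, adjusted p = 0.0326, quasi-likelihood test of edgeR) and 0.87 without CsA replicate 4.

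Med1 (tetur26g02090), a subunit of the Mediator complex, which links transcription factors to RNA polymerase II, had 30.9, 31.0, 33.7 and 35.3 CPM with PBO and 74.9, 78.3, 84.1 and 72.2 CPM with DEM, against 49.0, 51.3, 52.2 and 51.5 CPM with FORM. It had 40.7, 40.8, 51.6 and 53.7 CPM with DEF and 91.6, 75.1, 73.1 and 42.8 CPM with CsA, against 54.0, 59.5, 61.9 and 53.9 CPM in CON mites. The PBO libraries lay below and the DEM libraries above all FORM libraries, all DEF libraries were below all CON libraries, DEF replicate 4 by little, and CsA replicate 4 was the only CsA library below them. Its log2 FC with CsA against DEF was 0.66 (SE 0.13, adjusted p = 0.000979, quasi-likelihood test of edgeR) and 0.83 without CsA replicate 4.

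The gene with a Myc-type basic helix-loop-helix domain (tetur04g05450), a DNA-binding domain of transcription factors, had the largest difference of the 7 between CsA and DEF. It had 3.41, 3.08, 4.64 and 4.56 CPM with DEF and 13.3, 8.73, 11.8 and 2.70 CPM with CsA, against 4.24, 3.79, 3.66 and 4.05 CPM in CON mites. CsA replicates 1 to 3 were above, and CsA replicate 4 below, all DEF and CON libraries. The log2 FC was 1.28 for CsA against DEF (adjusted p = 0.00344) and 1.29 for CsA against CON (adjusted p = 0.00969, quasi-likelihood test of edgeR), and 1.58 and 1.60 without CsA replicate 4. The C2H2 zinc finger gene tetur03g04660 rose in both contrasts as well (log2 FC 1.02 against DEF and 0.59 against CON), but its call against CON was lost in 7 of the 8 cases with 1 CsA or CON library left out. The PHD finger gene tetur08g06990 (log2 FC 0.79), the FY-rich domain gene tetur17g01640 (0.91) and the gene of retinoblastoma-binding protein 6 (tetur25g01760, 0.65) rose with CsA against DEF and did not pass both limits with CsA against CON.

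The wider list of chromatin and transcription genes held 28 genes, among them these 7 and 8 of the genes left out by name. The list was taken from the study's differentially expressed genes, found in the same libraries, and is not independent evidence of a direction. Of its 21 genes outside the 61, 15 rose and 0 fell with CsA against DEF, where 4.00% of all genes tested rose and 2.28% fell. The 21 had a median log2 FC of 0.66, where the 7 had a median of 0.79 and all genes tested −0.00365. With DEF against CON, 4 of the 21 fell and 0 rose, where 1.89% of all genes tested fell and 2.47% rose. The median log2 FC was −0.30, where 0 of the 7 passed both limits and their median was −0.29. Of the 12 genes left out by name, 10 rose and 0 fell with CsA against DEF. The 21 hold 8 of these 12, and 9 of the 12 met the limits of the choice, so neither set lies wholly outside the chosen pattern. Without CsA replicate 4, 19 of the 21 and 12 of the 12 rose, where 6.69% of all genes tested did.

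Among 3 genes of RNA-binding proteins, 2 rose with CsA against DEF. The large proline-rich protein BAT2 gene (tetur27g01400) had 43.4, 42.5, 58.2 and 54.3 CPM with PBO and 145, 171, 164 and 145 CPM with DEM, against 79.2, 97.1, 86.3 and 95.9 CPM with FORM. It had 67.3, 68.2, 96.4 and 96.9 CPM with DEF and 183, 154, 158 and 52.5 CPM with CsA, against 99.6, 102, 109.6 and 103 CPM in CON mites. All DEF libraries lay below all CON libraries, DEF replicates 3 and 4 by little, and CsA replicate 4 was below every DEF library. Its log2 FC with CsA against DEF was 0.80 (SE 0.21, adjusted p = 0.0101, quasi-likelihood test of edgeR) and 1.06 without CsA replicate 4. The gene of an arginine/serine-rich splicing factor (tetur16g01200) had a log2 FC of 0.72, and tetur14g03650, with the alpha-beta plait fold of RNA-binding domains, had 0.53 and did not pass both limits, which it did without CsA replicate 4 (0.74). Of 8 further genes of this list, 2 of them left out by name, 6 rose and 0 fell with CsA against DEF, and 3 fell and 1 rose with DEF against CON. Of all genes tested, 4.00% rose and 2.28% fell in the first contrast, and 1.89% fell and 2.47% rose in the second.

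The 5 genes of extracellular matrix and secreted signals all rose with CsA against DEF, where 4.00% of all genes tested rose. Collagen alpha-1 (tetur15g00790), a structural protein of the matrix, had 1.46, 1.68, 1.17 and 1.73 CPM with PBO and 3.97, 5.28, 5.93 and 5.95 CPM with DEM, against 2.84, 3.97, 2.54 and 3.79 CPM with FORM. It had 1.26, 1.03, 1.85 and 2.31 CPM with DEF and 7.61, 4.72, 6.51 and 1.57 CPM with CsA, against 2.29, 3.04, 4.88 and 3.60 CPM in CON mites. CsA replicate 4 lay within the range of the DEF libraries, and DEF replicate 4 within that of the CON libraries. The gene fell with DEF against CON (log2 FC −1.06, SE 0.34, adjusted p = 0.0402) and rose with CsA against DEF (log2 FC 1.73, SE 0.33, adjusted p = 0.000803, quasi-likelihood test of edgeR), where the value was 2.03 without CsA replicate 4. The call for DEF against CON was lost with limma-voom (adjusted p = 0.0829), without DEF replicate 1 (0.121), 2 (0.106) or 3 (0.0599) and without CON replicate 2 (0.0621), 3 (0.14) or 4 (0.0746).

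Tenectin (tetur02g08240), a matrix protein known from *Drosophila*, had 2.70, 1.92, 4.49 and 3.40 CPM with DEF and 10.8, 9.25, 9.56 and 3.32 CPM with CsA, against 5.08, 5.05, 5.28 and 6.10 CPM in CON mites. DEF replicate 2 was the lowest of these libraries and CsA replicate 4 lay within the DEF range. Its log2 FC was 1.46 with CsA against DEF (SE 0.25, adjusted p = 0.000295, quasi-likelihood test of edgeR), or 1.72 without CsA replicate 4, and −0.76 with DEF against CON, which did not pass both limits. The cystine-knot cytokine gene tetur01g14780 (log2 FC 0.97 against DEF and 0.67 against CON) and the gene tetur12g01120, similar to the cell surface receptor Notch (1.09 and 0.76), rose with CsA in both contrasts, but the calls against CON were lost in 7 and 5 of the 8 cases with 1 library left out. Cubilin (tetur03g04440), an endocytic receptor in vertebrates, rose against DEF (log2 FC 0.71), a call lost without CsA replicate 1, 2 or 3 or DEF replicate 1, 2 or 3. The other 11 genes of this list moved in both directions with CsA against DEF: 3 rose and 5 fell, with a median log2 FC of −0.54, and as many without CsA replicate 4. Of all genes tested, 4.00% rose and 2.28% fell with all libraries.

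Chitinase (tetur23g02160), an enzyme that cleaves the chitin of the cuticle, belonged to the marker list of the cuticle, whose sums above leave it out. It had 2.55, 2.70, 2.33 and 2.72 CPM with PBO and 7.87, 11.9, 10.4 and 9.04 CPM with DEM, against 4.99, 4.55, 5.49 and 4.87 CPM with FORM. It had 2.28, 2.12, 4.56 and 4.70 CPM with DEF and 12.4, 9.12, 10.3 and 3.95 CPM with CsA, against 5.08, 6.72, 8.13 and 6.49 CPM in CON mites. DEF replicates 1 and 2 were the lowest, CsA replicate 4 lay between the DEF libraries, and CsA replicates 1 to 3 lay above all CON libraries. It fell with DEF against CON (log2 FC −0.92, SE 0.26, adjusted p = 0.0183) and rose with CsA against DEF (log2 FC 1.46, SE 0.25, adjusted p = 0.000292, quasi-likelihood test of edgeR), or 1.70 without CsA replicate 4. The call for DEF against CON was lost without DEF replicate 1 (adjusted p = 0.0824), DEF replicate 2 (0.0623) or CON replicate 3 (0.0614). None of the other 7 cuticle genes passed both limits in either contrast with all libraries, and 1 fell with CsA against DEF without CsA replicate 4.

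Of 3 genes with the P-loop fold of nucleoside triphosphate hydrolases, a fold that binds and cleaves ATP or GTP, 2 lie near each other by ID on scaffold 37. Of these, tetur37g00420 had 8.38, 9.36, 11.5 and 11.02 CPM with PBO and 38.0, 46.6, 44.5 and 36.1 CPM with DEM, against 20.3, 24.2, 22.03 and 23.6 CPM with FORM, and an L of PBO of −1.12. It had 16.7, 16.6, 20.5 and 16.6 CPM with DEF and 53.4, 48.2, 43.9 and 15.9 CPM with CsA, against 24.3, 27.8, 33.5 and 24.9 CPM in CON mites. All DEF libraries were below all CON libraries, and CsA replicate 4 was below all DEF libraries. The gene tetur37g00490 had 21.7, 23.8, 34.5 and 32.0 CPM with DEF and 88.5, 74.6, 63.5 and 21.8 CPM with CsA, against 44.7, 44.3, 46.6 and 42.9 CPM in CON mites. Its DEF libraries were also below all CON libraries, and CsA replicate 4 lay close to the lowest of them. With CsA against DEF the log2 FC was 1.26 for tetur37g00420 (SE 0.21, adjusted p = 0.000191) and 1.21 for tetur37g00490 (SE 0.23, adjusted p = 0.000903, quasi-likelihood test of edgeR), and 1.52 and 1.49 without CsA replicate 4. The third, tetur03g03160, had a log2 FC of 0.56 and did not pass both limits, which it did without CsA replicate 4 (0.80). Whether reads were shared between similar copies was not examined, so the split between the pair on scaffold 37 is uncertain.

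Of 5 genes of intracellular signalling and the cytoskeleton, 3 rose with CsA against DEF, and all 5 without CsA replicate 4. Of all genes tested, 4.00% rose with all libraries and 6.69% without CsA replicate 4. The RNF25 gene (tetur04g02070), an E3 ligase that attaches ubiquitin to proteins, was the most abundant of the 61, with 588, 551, 673 and 707 CPM with PBO and 1371, 1660.1, 1588 and 1487 CPM with DEM, against 787, 939, 860.0 and 1005 CPM with FORM. It had 849.8, 816, 1098 and 1262 CPM with DEF and 1608, 1415, 1380.4 and 556 CPM with CsA, against 1017, 941, 1200.1 and 941 CPM in CON mites. DEF replicates 1 and 2 lay below, and DEF replicate 4 above, all CON libraries, and CsA replicate 4 was the lowest of these 12 libraries. Its log2 FC with CsA against DEF was 0.36 and did not pass both limits, and it was 0.60 without CsA replicate 4. Myosin-10 (tetur18g01720), a motor protein (log2 FC 0.61), tetur19g02740, with a pleckstrin-homology or phosphotyrosine-binding domain (0.94), and the ankyrin repeat gene tetur29g01440 (0.89) rose, while the ankyrin repeat gene tetur20g00770 had 0.55 and did not pass both limits. The GYF domain gene tetur11g03200, whose domain binds proline-rich peptides, also rose (0.63).

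The gene of adenylosuccinate lyase (tetur02g09730), which acts in the making of purines, had the highest L of DEM of the 61. It had 2.25, 1.98, 3.87 and 2.13 CPM with PBO and 21.1, 17.9, 16.4 and 15.1 CPM with DEM, against 3.91, 3.44, 4.53 and 8.31 CPM with FORM. It had 3.53, 3.42, 5.21 and 8.10 CPM with DEF and 30.9, 15.7, 22.7 and 2.26 CPM with CsA, against 4.24, 4.94, 5.42 and 6.68 CPM in CON mites. FORM replicate 4 and DEF replicate 4 stood above the other libraries of their groups, CsA replicate 4 was the lowest library of the DEF, CsA and CON groups, and CsA replicates 1 to 3 were above all DEF and CON libraries. Its log2 FC with CsA against CON was 1.84 (SE 0.43, adjusted p = 0.0137, quasi-likelihood test of edgeR), and 2.21 without CsA replicate 4. The call was lost without CsA replicate 1 (adjusted p = 0.0643), with limma-voom (0.107) and with only the 2 groups compared in the fit (0.0686). With DEF against CON it was −0.05 and did not pass the test. The gene tetur03g01210, of an enzyme that activates sialic acids with CMP, had the smallest difference between CsA and DEF. The probable P450 pseudogene tetur21g00560 rose with CsA against DEF (log2 FC 1.51) and tetur05g01610, described as a polyprotein, did too (0.96). Both may have similar copies elsewhere. How reads of such copies were counted was not examined, and the values of both genes are uncertain.

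In 2 genes the pattern across groups was another. The sodium channel of the ENaC/DEG family (tetur09g00460) had 1.28, 1.5, 2.15 and 1.39 CPM with PBO and 5.23, 4.08, 4.12 and 3.09 CPM with DEM, against 3.06, 1.93, 3.09 and 2.37 CPM with FORM. It had 0.839, 0.958, 0.713 and 0.796 CPM with DEF and 2.14, 1.77, 1.11 and 1.82 CPM with CsA, against 1.78, 2.87, 0.949 and 2.18 CPM in CON mites. All DEF libraries were below all FORM libraries, DEF replicate 2 was just above the lowest CON library, and no CsA library reached above the CON range. It fell with DEF against CON (log2 FC −1.21, SE 0.31, adjusted p = 0.0118), a call lost without CON replicate 2 (adjusted p = 0.0652), and had a log2 FC of −0.10 with CsA against CON, which did not pass the test (quasi-likelihood test of edgeR), or −0.15 without CsA replicate 4.

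The intradiol ring-cleavage dioxygenase tetur12g04671, of an enzyme family that opens aromatic rings, had 16.5, 22.5, 12.6 and 11.95 CPM with PBO and 36.4, 33.1, 30.7 and 32.8 CPM with DEM, against 29.3, 19.2, 23.9 and 18.4 CPM with FORM. It had 10.8, 13.6, 14.1 and 11.9 CPM with DEF and 18.2, 22.2, 22.2 and 20.5 CPM with CsA, against 18.1, 26.0, 25.5 and 29.7 CPM in CON mites. PBO replicate 2 lay within the FORM range, all DEF libraries lay below all CON libraries, and the CsA libraries, replicate 4 included, lay close together and above all DEF libraries. It fell with DEF against CON (log2 FC −0.95, SE 0.18, adjusted p = 0.00136) and rose with CsA against DEF (log2 FC 0.80, SE 0.19, adjusted p = 0.00431, quasi-likelihood test of edgeR), or 0.79 without CsA replicate 4. These 2 genes were the only ones of the 61 with a CsA mean CPM below the CON mean.

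**Figure D4:**
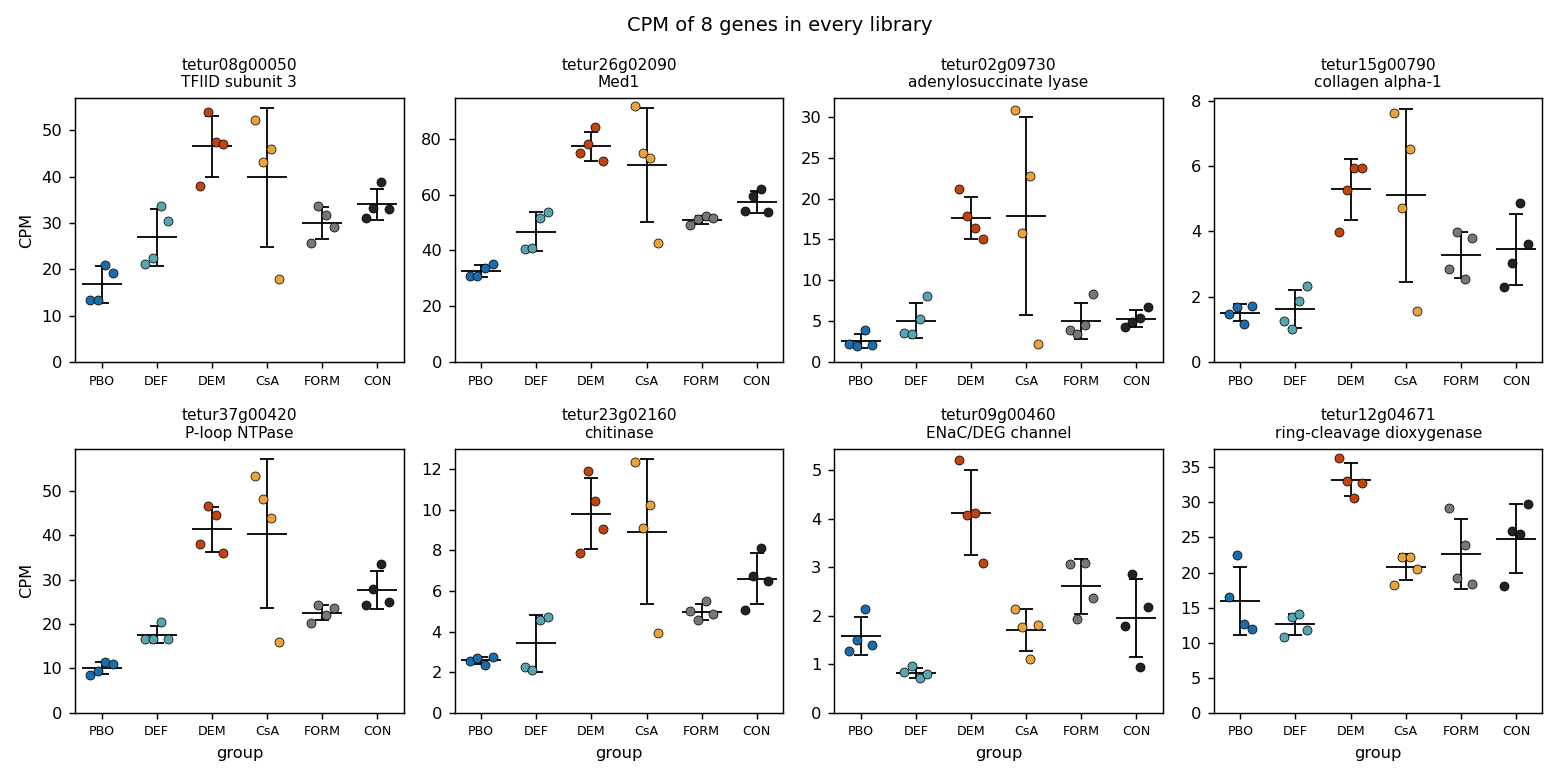
CPM (vertical axes, each from 0) of 8 genes in every library (points, replicates 1 to 4 from left to right), by group, with the mean and SD of 4 libraries. In the first 6 genes CsA replicate 4 lies far below the other CsA libraries, as for Med1 with 42.8 CPM against 73.1 to 91.6 CPM, while the channel and the dioxygenase do not show this.

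Genes without a named function were among those that differed most. The hypothetical protein gene tetur34g00420, the second highest by L of DEM, had 191, 204, 237 and 239 CPM with PBO and 819.9, 667, 779 and 687 CPM with DEM, against 284, 324, 319 and 428 CPM with FORM. It had 277, 241, 349.6 and 455 CPM with DEF and 1023, 654, 849.8 and 257 CPM with CsA, against 386, 324, 316 and 354 CPM in CON mites. CsA replicates 1 to 3 were far above all CON libraries and CsA replicate 4 below them. It rose with CsA against CON (log2 FC 1.10, SE 0.25, adjusted p = 0.0124, quasi-likelihood test of edgeR), and the value was 1.37 without CsA replicate 4. The call was lost without CsA replicate 1 (adjusted p = 0.056) or CON replicate 3 (0.0571), and with only the 2 groups compared in the fit (0.0653).

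The hypothetical protein gene tetur20g01290 had 98.8, 121, 132 and 132 CPM with DEF and 505, 406, 409 and 110.1 CPM with CsA, against 165, 198, 225 and 179 CPM in CON mites. All DEF libraries were below all CON libraries, and CsA replicate 4 lay among the DEF libraries. Its log2 FC was 1.62 with CsA against DEF (adjusted p = 0.000211) and 1.00 with CsA against CON (adjusted p = 0.0258, quasi-likelihood test of edgeR), and 1.92 and 1.29 without CsA replicate 4. The call against CON was lost in 5 of the 8 cases with 1 library left out. The lowest L of PBO, −1.18, belonged to tetur19g00680, a hypothetical protein gene with 1.64, 0.420, 1.60 and 1.33 CPM with PBO, against 3.12, 3.39, 3.43 and 3.92 CPM with FORM. Among the genes that fell with DEF against CON were also tetur03g10177 (log2 FC −0.89), tetur23g01190 (−0.61) and tetur09g04200 (−0.60), each of which lost its call in 5 of the 8 cases with 1 library left out. The gene tetur12g01710 was among the lowest in level, with 3.49 ± 1.32 CPM with CsA and 2.26 ± 0.714 CPM in CON mites (SD, n = 4), and rose (log2 FC 0.73, or 0.91 without CsA replicate 4), but its call was lost in 7 of the 8 cases with 1 library left out.

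The gene IDs, which number genes along scaffolds, placed the 61 genes on 27 scaffolds, 11 of them as the only one of the 61 on its scaffold. Scaffold 3 held 9. Close IDs (numbers at most 100 apart) were shared by tetur03g01200 and tetur03g01210, by tetur03g03160, tetur03g03170 and tetur03g03200, by tetur03g04610 and tetur03g04660, by tetur34g00420 and tetur34g00520, and by tetur37g00420 and tetur37g00490. The FY-rich gene tetur17g01640 is 10 numbers from tetur17g01650, a homolog of the mixed-lineage leukemia histone methyltransferase and one of the genes left out by name. Within these sets the changes were not of 1 size: tetur34g00420 had a log2 FC of 1.14 with CsA against DEF and tetur34g00520 of 0.56.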

How the data were processed

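Gene counts of 24 libraries were used as the authors deposited them, whole counts of reads per gene with no normalization. The submitters' processing notes name FastQC 0.11.4, STAR 2.5.0a, SAMtools 0.1.19 and HTSeq 0.6.0, and the libraries were strand-specific. Per the study's methods, reads were aligned to the published T. urticae genome and counted on a dated release of its annotation, and no build name is given in the sources used here. Total counts were 13824851 to 18198286, so a gene at 2 CPM rests on few reads.

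The model was fitted with edgeR 4.0.16 under R 4.3.3, and the alternatives with DESeq2 1.42.0 and limma 3.58.1. Genes were filtered by filterByExpr on the 6 groups, which left 12736 genes and all 61 described, libraries were scaled by TMM (factors 0.92 to 1.11), and 1 mean per group was fitted by glmQLFit and glmQLFTest with default settings to all libraries. Calls needed a Benjamini-Hochberg adjusted p below 0.05 over all genes tested and an FC of at least 1.5. The 4 extracts of a group are called biological replicates in the labels. Whether they came from separate rearings is not stated. The p-values rest on a spread between extracts that is shared by all 6 groups, so they do not measure the spread of 1 group. For the 61 genes the spread was widest with CsA (median coefficient of variation 36.8%).

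Both the default and the robust setting of glmQLFit were run. The default, the test written for this comparison, is reported, although the robust setting gives fewer calls for CsA, and the robust counts are given with the alternatives. The script was tested on simulated data.

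The members and the lists were chosen with earlier results of these data known. The lists were formed by words in the gene names published with the study's differentially expressed genes, found in the same libraries. Genes are named in the text if they had such a name, if they were at the ends of L of PBO or L of DEM among the others, if they were among the 5 highest or 5 lowest for CsA against DEF, if they passed both limits with DEF against CON, or if they lay at the limits of the choice. The genes that passed both limits with CsA against CON and close neighbours by ID were named in addition, after their values were seen. Sequences and genome coordinates were not used here.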

Additional observations from a re-analysis of the deposited data

Results flagged for a closer look

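In each group of 4 libraries, the gap between the highest or lowest CPM and its nearest neighbour was compared with the whole range of the group, by Dixon's 95% limit for 4 values. Chance passes this limit in about 1 in 20 groups, and 11 of 366 values tested (3.01%) passed it. PBO replicate 3 was high for tetur01g14780 (3.56 CPM) and for tetur02g09730 (3.87 CPM), and DEF replicate 3 for tetur37g00420 (20.5 CPM). DEM replicate 1 was high for tetur01g03410 (7.69 CPM) and low for tetur09g04200 (10.2 CPM). CsA replicate 4 was low for tetur03g04440 (4.01 CPM) and tetur09g03700 (2.88 CPM). FORM replicate 2 was high for tetur03g03200 (30.2 CPM). CON replicate 4 was low for tetur08g06990 (60.1 CPM) and tetur19g02740 (22.2 CPM), and CON replicate 3 for tetur09g03700 (2.98 CPM). CsA replicate 4 passed the limit in 2 of 61 genes although it was the lowest CsA library in 59.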

How the results depend on the processing

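The 5 counts above 0 in the reported fit were recomputed 80 times under another setting. Of these values 56 were within 1.5 times the reported one and 24 were not. The 79 log2 FC values behind these counts, all past both limits, were recomputed 1185 times. Of the recomputed values 0 changed sign and 283 no longer passed both limits. Among values not past the limits some did change sign. Positive values went from 59 to 60 with CsA against CON without CsA replicate 3, and from 5 to 10 with DEF against FORM without DEF replicate 1. Leaving out 1 library at a time gave 0 to 54 genes that rose with CsA against FORM, 1 to 38 with CsA against CON and 29 to 59 with CsA against DEF, and 2 to 7 that fell with DEF against CON and 2 to 3 with DEF against FORM. In the opposite directions, and for FORM against CON, the count was 0 under every setting that kept both limits. Of the 47 genes that rose with CsA against DEF, 28 did so whichever library was left out. This held for 0 of 14 with CsA against FORM, 1 of 9 with CsA against CON, 1 of 7 that fell with DEF against CON and 2 of 2 with DEF against FORM. With limma-voom the counts were 38 for CsA against DEF, 2 for CsA against FORM, 4 for DEF against CON, 2 for CsA against CON and 2 for DEF against FORM. With only the 2 groups compared in the fit they were 37 for CsA against DEF, 4 for DEF against FORM, 0 for CsA against FORM, 11 for DEF against CON and 0 for CsA against CON. The cause was not tested. The robust setting of edgeR, added after seeing the data, gave 11 for CsA against FORM, 8 for CsA against CON, 47 for CsA against DEF, 7 for DEF against CON and 2 for DEF against FORM. Replicate numbers did not pair the libraries (correlations of same-numbered deviations from −0.28 to 0.21). With the replicate block the counts were 18 for CsA against FORM, 10 for CsA against CON, 47 for CsA against DEF, 9 for DEF against CON and 2 for DEF against FORM. The choice of genes gave 31 with a fold of 1.5 on both sides, 63 with TMM scaling, 65 with DESeq2 size factors, 71 with a pseudocount of 0.1, 42 with a FORM mean of at least 5 CPM, and 54 to 68 without 1 library. Precision at low level is limited by depth, as for tetur12g01710 with a FORM mean of 2.12 CPM.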
